A study of Mus musculus with 6 samples.

Results

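The genes described here mark microglia and the macrophages at the borders of the brain. A list of 38 gene symbols was looked up in the table of the whole series, and 37 of them had a row among its 21461 genes, with *Pf4*, a chemokine gene of border macrophages, not analysed here. The 37 genes were told apart by role into 12 homeostatic microglia genes, 14 phagocytic genes, 4 border macrophage genes and 7 genes shared among leukocytes. These role groups were set with earlier results of these data known. RNA came from hypothalamic arcuate nucleus (ARC) tissue of 10-week-old male C57BL/6 mice, taken 24 h after an i.p. injection. The injection held Dex (dexamethasone, a synthetic agonist of the glucocorticoid receptor, GR) at 10 mg/kg with Zj7, a jujube triterpenoid that the study examined as a selective GR modulator, at 50 mg/kg (Dex+Zj7), Dex at 10 mg/kg alone, or vehicle. Each of the 3 groups had 2 libraries. The labels call only the vehicle mice fed, and nothing in them tells whether both libraries of a group are from different animals. The p-values therefore cover the spread among these 6 samples alone, which could be technical. The labels give 10 mg/kg for the combined injection, and the dose of Zj7 is that of the series' design text.

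Microglia are the resident macrophages of the brain parenchyma. They arise from yolk sac precursors, depend on the receptor CSF1R for survival, and scan their surroundings with fine processes guided by purinergic and chemokine receptors. In undisturbed tissue they carry a set of surface receptors known as the homeostatic signature, and a further set of receptors and lysosomal proteins serves to recognise and digest debris. Border macrophages lie in the meninges, around vessels and in the choroid plexus, and carry scavenger receptors that most microglia lack. Glucocorticoids are known to act on macrophages through GR and to change their inflammatory and engulfment genes.

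Library totals ran between 50704789 and 61122938 counts, and levels are given as CPM (counts divided by the TMM-scaled library total and brought to a common size), with TMM factors of 0.987 to 1.01. *Fkbp5*, a co-chaperone gene that GR is known to induce, was higher in both treated groups, at 125 and 93.9 CPM with Dex+Zj7, 127 and 123 CPM with Dex and 36 and 31.4 CPM with vehicle. Of 9 arcuate neuron genes all had a row, among them *Agrp*. Of 10 neuron genes none was called in either comparison with vehicle, and their summed level was 5859.9 to 5974 CPM with Dex+Zj7, 5868 to 6011 CPM with Dex and 5776 to 5905 CPM with vehicle. Other cell types of the tissue were lower together with the genes described here. Of 8 mural cell genes, 5 were lower with Dex+Zj7 and 7 with Dex, and their summed level was 106 and 114 CPM with Dex+Zj7, 103 and 84.6 CPM with Dex and 210.5 and 187 CPM with vehicle. Of 8 oligodendrocyte genes, 6 were lower in each comparison, with sums of 4243 and 4489.6 CPM with Dex+Zj7, 4149.9 and 4147 CPM with Dex and 5107 and 5564 CPM with vehicle, and of 6 ependymal genes, 3 were lower in each. Their part in the results was not tested. In bulk tissue, fewer cells of a type and less RNA per cell cannot be told apart.

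Together the 37 genes held 0.0443% and 0.0428% of the counts with Dex+Zj7, 0.0457% and 0.0449% with Dex and 0.0583% and 0.0586% with vehicle. Both treated groups thus stood below vehicle in every library. Per length, the vehicle level was highest for *Gas6* (38 FPKM, mean of 2 libraries), *Cd83* (32.9 FPKM) and *Ctss* (29.3 FPKM), and lowest for *Cd163* (0.332 FPKM) and *Lyve1* (0.210 FPKM). *Csf1r* was at 16.6 FPKM, *Tyrobp* at 9.36 FPKM, *Cx3cr1* at 8.41 FPKM and *Tmem119* at 5.40 FPKM.

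The question of the first comparison was what Dex did to these genes. With Dex 20 of the 37 genes fell and 1 rose, by edgeR's quasi-likelihood test at an adjusted p under 0.05. Among all genes 6.45% were called lower and 5.03% higher. The median log2 fold change of the 37 genes was −0.68, and that of all 21461 genes was 0.00. Their values ran from −2.67 for *Cx3cr1* to 0.86 for *Mertk*, so the genes did not move by a common amount. In 27 of the 37 genes both Dex libraries lay below both vehicle libraries, as they did in 28.5% of all genes, and in 4 genes above them (27.4% of all genes). With Dex+Zj7, 17 genes were called lower than vehicle and 0 higher, where 3.97% and 3.4% of all genes were called (7.38% in both directions). Both Dex+Zj7 libraries lay below both vehicle libraries in 27 genes and above them in 5, as they did in 28.7% and 29.4% of all genes. At an unadjusted p under 0.05, 3 members (8.11%) were higher than vehicle with Dex+Zj7, against 12.1% of all genes, and the exact test of edgeR called 1 member among 1830 genes higher. The median with Dex+Zj7 was −0.69. Both comparisons use the same vehicle libraries.

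**Figure D1:**
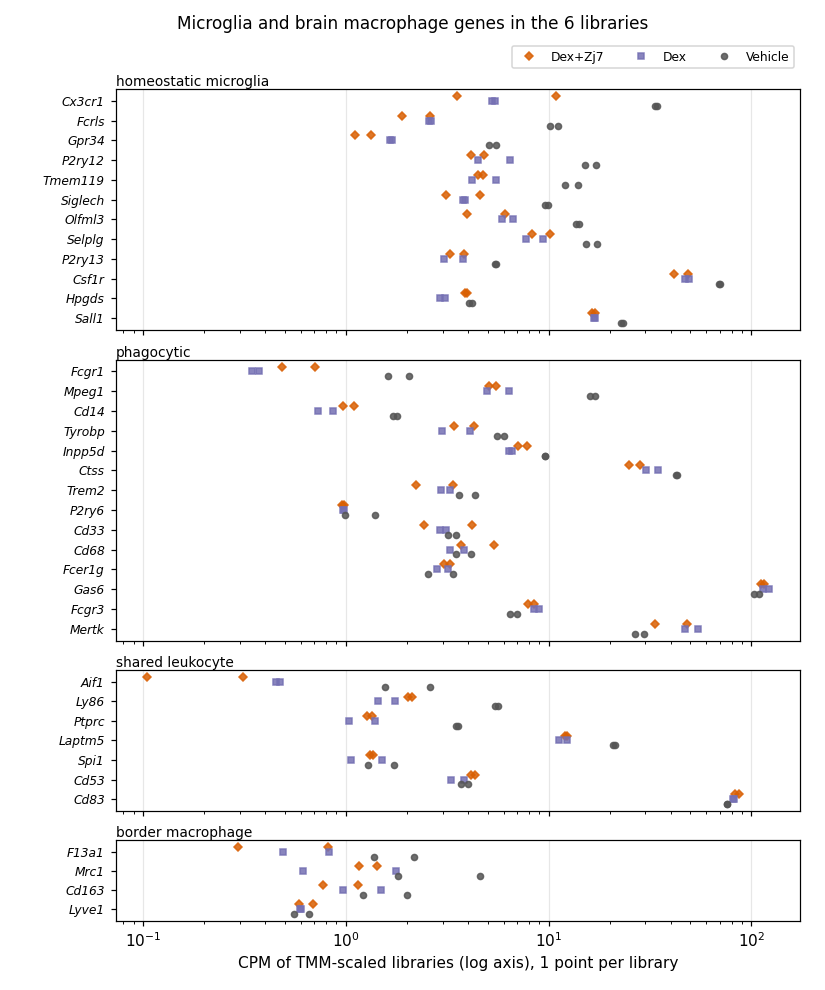
CPM of each gene on a log axis, with 1 point per library, for Dex+Zj7 (orange diamonds), Dex (purple squares) and vehicle (grey circles); genes are grouped by role and ordered by the change with Dex. The vehicle points of the homeostatic genes lie to the right of both treated groups, whereas *Mertk* and *Fcgr3* have them on the left.

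Nearly all homeostatic genes were lower in both treated groups. Of the 12 genes, 11 fell with Dex and 10 with Dex+Zj7, with medians of −1.25 and −1.41 on the log2 scale. Their summed level was 110.5 and 104 CPM with Dex+Zj7 and 109 and 111 CPM with Dex, against 219 and 223 CPM with vehicle. In all 12 genes the libraries of each treated group lay below both vehicle libraries.

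The receptors of this group spanned a wide range. *Cx3cr1*, the receptor for the neuronal chemokine fractalkine, had 3.55 and 10.9 CPM with Dex+Zj7, 5.43 and 5.24 CPM with Dex and 33.6 and 34.3 CPM with vehicle. Its log2 fold change was −2.67 with Dex (SE 0.38, adjusted p = 0.00544), or 0.157 times the vehicle level, and −2.23 with Dex+Zj7 (SE 0.37, adjusted p = 0.0128). The Dex+Zj7 libraries differed from each other more than those of the other groups, and both were below vehicle. The Dex+Zj7 value of *Cx3cr1* was −3.27 without Dex+Zj7 replicate 2 and −1.64 without Dex+Zj7 replicate 1, and it was called in both. *P2ry12*, an ADP receptor that steers microglial processes towards injury, had 4.82 and 4.15 CPM with Dex+Zj7, 6.45 and 4.50 CPM with Dex and 17.1 and 15.2 CPM with vehicle. It fell by 1.56 with Dex (SE 0.18, adjusted p = 0.00213) and by 1.85 with Dex+Zj7 (adjusted p = 0.00156). *P2ry13*, a second ADP receptor gene that lies beside it, moved less, with 3.85 and 3.26 CPM with Dex+Zj7, 3.79 and 3.04 CPM with Dex and 5.47 and 5.50 CPM with vehicle. Its call with Dex (−0.68, adjusted p = 0.0395) was lost without any one of 5 libraries, Dex replicate 1 being the exception (adjusted p of 0.0533 to 0.173), and with only the 2 groups in the fit (0.0504). With Dex+Zj7 *P2ry13* was not called (−0.63, adjusted p = 0.0648), but it was in 9 of 15 alternatives, DESeq2, limma-voom, the exact test and both low-count filters among them. *Gpr34*, a receptor for lysophosphatidylserine, had 1.34 and 1.115 CPM with Dex+Zj7, 1.70 and 1.66 CPM with Dex and 5.07 and 5.52 CPM with vehicle, with log2 fold changes of −1.66 for Dex and −2.11 for Dex+Zj7 (adjusted p = 0.00236 and 0.00134). *P2ry12* and *P2ry13* lie within *Med12l* and *Gpr34* within *Cask*, and whether strand was used when reads were counted is not given in the sources read here. *Med12l* averaged 101, 100.5 and 95.8 CPM with Dex+Zj7, Dex and vehicle, and *Cask* 87.0, 90.9 and 87.5 CPM, and neither host gene was called in either comparison.

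The other markers of this group fell by different amounts. *Fcrls*, an Fc receptor-like gene that marks mouse microglia, had 2.59 and 1.89 CPM with Dex+Zj7, 2.63 and 2.59 CPM with Dex and 10.1 and 11.1 CPM with vehicle. Its log2 fold changes were −2.02 with Dex (SE 0.18, adjusted p = 7.85e-04) and −2.24 with Dex+Zj7 (SE 0.18, adjusted p = 8e-04). *Tmem119*, a membrane protein gene used to tell microglia from blood-derived macrophages, had 4.73 and 4.51 CPM with Dex+Zj7, 4.18 and 5.48 CPM with Dex and 12 and 14 CPM with vehicle. No library of a treated group came near the vehicle level of either gene. The sialic acid-binding lectin gene *Siglech* had 4.59 and 3.13 CPM with Dex+Zj7, 3.79 and 3.86 CPM with Dex and 9.57 and 9.99 CPM with vehicle. The secreted glycoprotein gene *Olfml3* had 6.11 and 3.95 CPM with Dex+Zj7, 6.71 and 5.88 CPM with Dex and 14.2 and 13.7 CPM with vehicle. *Selplg*, the ligand of P-selectin, had 10.2 and 8.28 CPM with Dex+Zj7, 7.78 and 9.38 CPM with Dex and 15.3 and 17.3 CPM with vehicle. On the log2 scale *Tmem119* was at −1.49 with Dex+Zj7 and −1.43 with Dex, *Siglech* at −1.34 and −1.35, *Olfml3* at −1.47 and −1.15 and *Selplg* at −0.82 and −0.92, all of them called. The calls of *Selplg* were lost without Vehicle replicate 2 (adjusted p = 0.0528 with Dex and 0.0969 with Dex+Zj7), and that with Dex+Zj7 also without Dex+Zj7 replicate 2 (0.0823).

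The survival receptor and the identity factor fell less than most of the surface markers, though with Dex+Zj7 *P2ry13* (−0.63) was close to *Csf1r* (−0.62). *Csf1r*, which encodes the receptor for CSF1 and IL-34, had 48.5 and 41.7 CPM with Dex+Zj7, 46.8 and 49.2 CPM with Dex and 69.6 and 69.4 CPM with vehicle. It was at 0.691 times the vehicle level with Dex (log2 fold change −0.53, SE 0.08, adjusted p = 0.00628) and 0.649 times with Dex+Zj7. *Sall1*, a transcription factor gene needed for microglial identity, had 16.4 and 16.9 CPM with Dex+Zj7, 16.9 and 16.8 CPM with Dex and 22.8 and 23.3 CPM with vehicle. The groups were tight, with log2 fold changes of −0.46 and −0.47 for Dex and Dex+Zj7 (adjusted p = 0.00982 and 0.0119). Its Dex call was lost without either vehicle library (*Sall1*, adjusted p of 0.0566 and 0.0836), and its Dex+Zj7 call without any of the 4 libraries compared (0.0516 to 0.0937). *Sall1* overlaps the gene model *Gm3134*, which was also lower (−0.80 with Dex, adjusted p = 0.0279), and how reads of the shared stretch were counted is not given in the sources read here. *Hpgds*, a prostaglandin D synthase gene, was the homeostatic gene not called in either comparison, with 3.88 and 3.97 CPM with Dex+Zj7, 3.08 and 2.91 CPM with Dex and 4.05 and 4.19 CPM with vehicle.

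**Figure D2:**
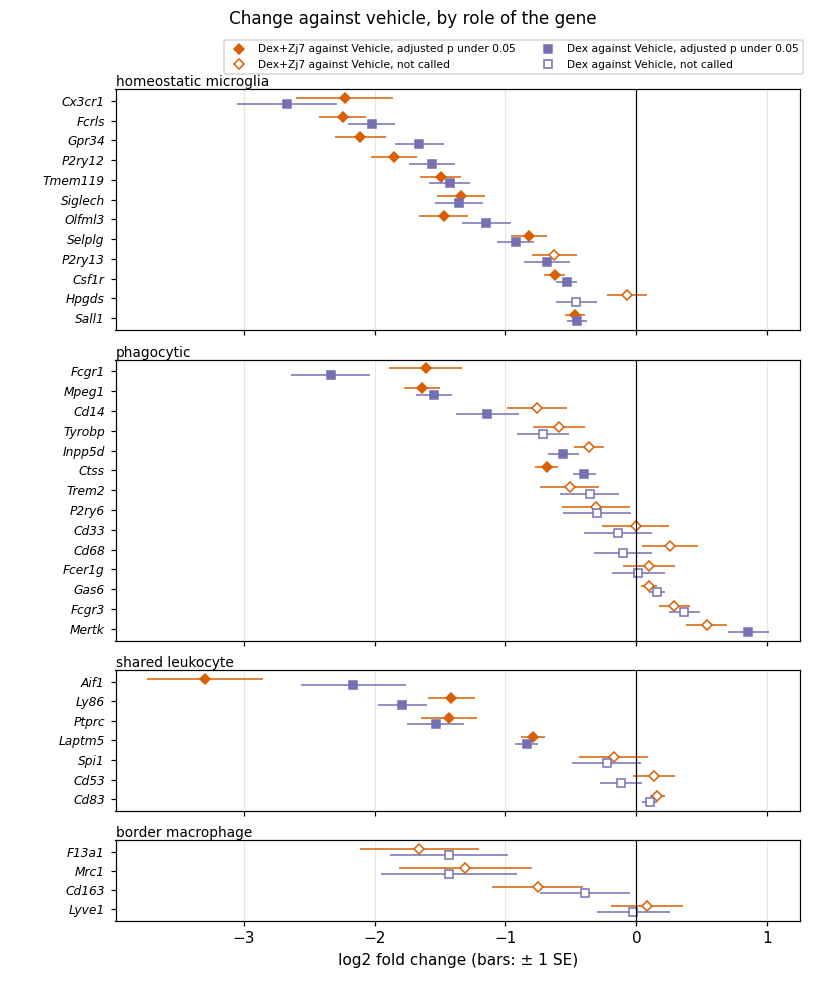
Log2 fold change of each gene against vehicle, with bars of 1 SE, for Dex+Zj7 (orange diamonds) and Dex (purple squares); filled symbols have an adjusted p under 0.05. Homeostatic genes run from −2.67 to −0.46 with Dex, while the phagocytic genes spread on both sides of 0, from −2.34 to 0.86.

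Promoter sequences are shown for 5 genes that span the range of change, from *Cx3cr1* at the low end to *Mertk* at the high end. A window of 300 bases, 250 before and 50 after a start site, was given by RefSeq (GRCm38.p6) for 27 of the 37 genes. For some genes, *Fcrls* among them, this start site lies inside the annotated gene. Macrophage genes are known to be bound by PU.1, an ETS family factor encoded by *Spi1*. Its box was searched as GAGGAAGT and the shorter ETS core, which the box contains, as GGAAGT, on both strands. The ETS core stood in a window of 15 of the 27 genes (55.6%) and of 26.5% of all genes with a window, and the PU.1 box in 5 of 27 (18.5%) and in 3.69%. The glucocorticoid response element, searched as its palindromic consensus with 3 free bases between the arms, stood in 0 of the 27 genes and in 0.537% of all. These are matches of letters and not sites of binding. Capitals mark the ETS core or its reverse complement, and each line runs 5′ to 3′ on the strand of the gene. Positions are chr9:120068247-120068546 (minus strand), chr3:87263475-87263774 (minus), chr3:59262936-59263235 (minus), chr3:95526536-95526835 (plus) and chr2:128698665-128698964 (plus), in that order.
Cx3cr1: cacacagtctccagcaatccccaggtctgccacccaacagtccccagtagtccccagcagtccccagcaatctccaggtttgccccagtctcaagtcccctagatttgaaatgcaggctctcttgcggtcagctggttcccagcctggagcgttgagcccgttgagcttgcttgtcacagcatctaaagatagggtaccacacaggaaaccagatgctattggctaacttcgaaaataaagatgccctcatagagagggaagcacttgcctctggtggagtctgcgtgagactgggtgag
Fcrls: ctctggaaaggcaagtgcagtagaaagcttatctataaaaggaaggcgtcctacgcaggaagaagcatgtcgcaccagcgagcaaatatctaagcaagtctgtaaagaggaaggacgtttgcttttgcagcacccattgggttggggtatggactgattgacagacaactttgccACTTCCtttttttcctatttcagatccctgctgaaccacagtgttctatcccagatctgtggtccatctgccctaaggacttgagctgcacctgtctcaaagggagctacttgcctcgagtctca
P2ry12: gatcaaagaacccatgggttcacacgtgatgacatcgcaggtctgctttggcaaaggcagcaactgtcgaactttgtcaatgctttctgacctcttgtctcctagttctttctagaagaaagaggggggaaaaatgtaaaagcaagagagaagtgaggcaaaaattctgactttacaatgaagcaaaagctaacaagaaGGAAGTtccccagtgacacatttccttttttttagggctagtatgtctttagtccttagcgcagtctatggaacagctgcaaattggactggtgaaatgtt
Ctss: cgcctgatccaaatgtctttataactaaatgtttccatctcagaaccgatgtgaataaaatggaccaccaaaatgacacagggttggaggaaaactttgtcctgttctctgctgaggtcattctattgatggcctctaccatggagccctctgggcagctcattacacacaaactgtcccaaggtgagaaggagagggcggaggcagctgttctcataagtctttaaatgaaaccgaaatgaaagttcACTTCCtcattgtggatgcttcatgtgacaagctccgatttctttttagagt
Mertk: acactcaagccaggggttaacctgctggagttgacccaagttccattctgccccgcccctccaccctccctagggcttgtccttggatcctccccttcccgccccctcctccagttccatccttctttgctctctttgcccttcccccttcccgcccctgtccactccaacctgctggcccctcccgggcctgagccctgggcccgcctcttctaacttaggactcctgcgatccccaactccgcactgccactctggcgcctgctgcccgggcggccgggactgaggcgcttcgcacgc
Where a gene had several windows, a window with the ETS core was printed if there was any. The ETS core was present once each in *Fcrls* and *P2ry12*, which fell, and in *Ctss*, where it is part of the PU.1 box. The windows of *Cx3cr1*, with the lowest value for Dex, and *Mertk*, which rose, did not hold it.

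The phagocytic genes did not move as a block. Their group was set with earlier results of these data known, and its contrast with the homeostatic genes was not tested. Of the 14 genes, 5 fell and 1 rose with Dex, and 3 fell and 0 rose with Dex+Zj7, with medians of −0.33 and −0.34. Their summed level was 227 and 218 CPM with Dex+Zj7, 243 and 239 CPM with Dex and 233 and 236 CPM with vehicle. This sum is carried by *Gas6* and *Mertk*, which together held 160.1 and 149 CPM with Dex+Zj7, 169 and 169 CPM with Dex and 133 and 136 CPM with vehicle. The other 12 phagocytic genes summed to 66.7 and 68.8 CPM with Dex+Zj7, 74.0 and 69.2 CPM with Dex and 100.05 and 100.3 CPM with vehicle.

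Receptors for antibody and for bacterial products differed among themselves. *Fcgr1*, the high-affinity IgG receptor CD64, had 0.487 and 0.705 CPM with Dex+Zj7, 0.375 and 0.346 CPM with Dex and 1.61 and 2.05 CPM with vehicle. It fell by 2.34 with Dex (SE 0.30, adjusted p = 0.00395) and by 1.61 with Dex+Zj7 (SE 0.28, adjusted p = 0.0155), and the Dex+Zj7 call of *Fcgr1* was lost without Dex+Zj7 replicate 1 or Vehicle replicate 2 (adjusted p of 0.111 and 0.0973). *Fcgr3*, the low-affinity receptor CD16, stood on the other side, with 7.93 and 8.51 CPM with Dex+Zj7, 8.92 and 8.43 CPM with Dex and 7.02 and 6.42 CPM with vehicle. Both treated groups lay above vehicle, but *Fcgr3* was not called (0.37 with Dex, adjusted p = 0.0869, and 0.29 with Dex+Zj7, adjusted p = 0.177). Fc receptor genes share sequence with their paralogs, and how reads they share were assigned is not given in the sources read here. *Cd14*, the co-receptor for lipopolysaccharide, had 0.974 and 1.10 CPM with Dex+Zj7, 0.869 and 0.728 CPM with Dex and 1.80 and 1.72 CPM with vehicle. Its Dex call (−1.14, adjusted p = 0.0210) was lost without any of the 4 libraries compared (*Cd14*, adjusted p of 0.0502 to 0.0966), and it was not called with Dex+Zj7 (−0.76, adjusted p = 0.0829).

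Adaptors that carry such signals inside the cell, and the receptors and phosphatase that act with or beside them, gave few calls. *Tyrobp*, the adaptor DAP12 used by TREM2, had 3.41 and 4.30 CPM with Dex+Zj7, 2.98 and 4.1 CPM with Dex and 6.02 and 5.59 CPM with vehicle. It just missed the threshold with Dex (−0.71, SE 0.20, adjusted p = 0.0527) and was called by DESeq2, by limma-voom and by the exact test. *Fcer1g*, the Fc receptor gamma chain with the same kind of signalling motif, had 3.27 and 3.07 CPM with Dex+Zj7, 2.8 and 3.19 CPM with Dex and 2.54 and 3.40 CPM with vehicle, and its groups overlapped. *Trem2*, a receptor for lipids and apoptotic cells, had 3.38 and 2.23 CPM with Dex+Zj7, 2.96 and 3.26 CPM with Dex and 3.62 and 4.36 CPM with vehicle, without a call (−0.36 and −0.51 for Dex and Dex+Zj7). *Inpp5d*, which encodes the phosphatase SHIP1 that restrains these receptors, had 7.08 and 7.84 CPM with Dex+Zj7, 6.61 and 6.41 CPM with Dex and 9.62 and 9.58 CPM with vehicle. It fell by 0.56 with Dex (adjusted p = 0.0211, for *Inpp5d* 0.0536 to 0.123 without 1 of the 4 libraries compared) and was at −0.36 with Dex+Zj7 (adjusted p = 0.0955). *Cd33*, an inhibitory sialic acid receptor, and *P2ry6*, a UDP receptor that starts phagocytosis, were not called, with values of −0.14 and −0.30 for Dex. Over the 6 libraries *Cd33* was between 2.42 and 4.21 CPM and *P2ry6* between 0.957 and 1.40 CPM.

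Among the proteins that digest what is taken up, *Mpeg1*, which encodes the pore-forming perforin-2, had 5.06 and 5.53 CPM with Dex+Zj7, 6.36 and 4.95 CPM with Dex and 17 and 16 CPM with vehicle. Its log2 fold changes were −1.55 with Dex (SE 0.14, adjusted p = 8.96e-04) and −1.64 with Dex+Zj7 (SE 0.14, adjusted p = 0.00102). *Ctss*, the lysosomal protease cathepsin S, fell less, with 28.1 and 25 CPM with Dex+Zj7, 34.8 and 30.1 CPM with Dex and 42.4 and 42.9 CPM with vehicle. It was at 0.760 times the vehicle level with Dex (adjusted p = 0.0263) and 0.621 times with Dex+Zj7 (adjusted p = 0.00545), and the Dex call of *Ctss* was lost without Dex replicate 2 (adjusted p = 0.0721), Vehicle replicate 1 (0.0978) or Vehicle replicate 2 (0.140). *Cd68*, a lysosomal glycoprotein gene often read as a sign of phagocytic activity, had 3.69 and 5.40 CPM with Dex+Zj7, 3.28 and 3.82 CPM with Dex and 3.49 and 4.14 CPM with vehicle, and its groups overlapped.

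The engulfment receptor *Mertk* was the member that rose. It encodes a receptor tyrosine kinase that recognises dying cells through bridging ligands and is also expressed by astrocytes. It had 48.3 and 33.3 CPM with Dex+Zj7, 54.6 and 47.2 CPM with Dex and 29.6 and 26.6 CPM with vehicle. With Dex this was 1.81 times the vehicle level (log2 fold change 0.86, SE 0.16, adjusted p = 0.0131), and the call of *Mertk* was lost without Dex replicate 1 (0.0515) or Vehicle replicate 2 (0.0843). With Dex+Zj7 both libraries were above vehicle but the value of 0.54 did not pass (adjusted p = 0.0763), although *Mertk* was called higher in 5 of 15 alternatives, namely the exact test, both low-count filters, the replicate block and without Dex+Zj7 replicate 2. *Gas6*, the bridging ligand of MERTK, had 112 and 116 CPM with Dex+Zj7, 114 and 122 CPM with Dex and 103 and 109 CPM with vehicle, with no call (0.15 with Dex, adjusted p = 0.141). The 8 astrocyte genes had a median of −0.02 with Dex, 0 of them higher and 2 lower, and their summed level was 2745 and 2832 CPM with Dex+Zj7, 2912 and 2718 CPM with Dex and 2957 and 2966 CPM with vehicle.

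Of the 7 genes shared among leukocytes, 4 fell in each comparison. *Aif1*, which encodes the microglial stain IBA1, had 0.104 and 0.312 CPM with Dex+Zj7, 0.474 and 0.455 CPM with Dex and 2.60 and 1.57 CPM with vehicle. Its counts were low, with 6 and 19 reads in the Dex+Zj7 libraries, and its log2 fold changes were −2.16 with Dex (SE 0.40, adjusted p = 0.0135) and −3.30 with Dex+Zj7 (SE 0.44, adjusted p = 0.00614). The Dex+Zj7 value of *Aif1* was −4.30 without Dex+Zj7 replicate 2 and −2.73 without Dex+Zj7 replicate 1, and it was called in both. The Dex call of *Aif1* was lost without Dex replicate 1 (0.0521) or Vehicle replicate 1 (0.0733). *Ly86*, which encodes MD-1, a partner of the receptor CD180, had 2.02 and 2.12 CPM with Dex+Zj7, 1.76 and 1.44 CPM with Dex and 5.61 and 5.43 CPM with vehicle. *Ptprc*, the pan-leukocyte phosphatase CD45, had 1.27 and 1.34 CPM with Dex+Zj7, 1.40 and 1.04 CPM with Dex and 3.56 and 3.49 CPM with vehicle. *Laptm5*, a lysosomal membrane protein gene of leukocytes, had 12.1 and 12.3 CPM with Dex+Zj7, 11.3 and 12.3 CPM with Dex and 20.9 and 21.3 CPM with vehicle. In all 3 genes the treated libraries were well clear of vehicle, with log2 fold changes of −1.42 with Dex+Zj7 and −1.79 with Dex for *Ly86*, −1.43 and −1.53 for *Ptprc* and −0.79 and −0.84 for *Laptm5* (adjusted p with Dex of 0.00148, 0.00533 and 0.00160). The call of *Ptprc* with Dex+Zj7 (adjusted p = 0.00868) was lost without either Dex+Zj7 library (0.0735 and 0.0506). *Spi1*, the gene of PU.1, had 1.32 and 1.36 CPM with Dex+Zj7, 1.07 and 1.51 CPM with Dex and 1.73 and 1.29 CPM with vehicle, and its groups overlapped. The tetraspanin gene *Cd53* (−0.12 with Dex) and *Cd83* (0.10), a marker of activated antigen-presenting cells, were not called either, at 3.31 to 4.31 CPM and 75.8 to 87.0 CPM over the 6 libraries.

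None of the 4 border macrophage genes was called, although 2 of them had low values. By edgeR's quasi-likelihood test *F13a1* and *Mrc1* had unadjusted p-values under 0.05 with Dex, as did 27.8% of all genes (14.7% lower). Over the whole table the exact test called 3358 genes with Dex and 3867 with Dex+Zj7. DESeq2 and the exact test called *F13a1* in both comparisons with vehicle, limma-voom only with Dex+Zj7. With the replicate number as a block *Mrc1* was called in both (adjusted p = 0.0198 with Dex and 0.0442 with Dex+Zj7), and the exact test called *Mrc1* with Dex+Zj7. The median of the 4 genes was −1.03 with Dex+Zj7 and −0.91 with Dex, and without 1 library it ran from −1.45 to −0.42 with Dex+Zj7 and from −1.30 to −0.30 with Dex, the values nearest 0 being those without Vehicle replicate 1. *Mrc1*, the mannose receptor CD206, had 1.43 and 1.16 CPM with Dex+Zj7, 1.78 and 0.619 CPM with Dex and 4.58 and 1.81 CPM with vehicle. *F13a1*, coagulation factor XIII A, had 0.296 and 0.820 CPM with Dex+Zj7, 0.829 and 0.492 CPM with Dex and 2.16 and 1.38 CPM with vehicle. Within vehicle and within Dex the first library was the higher one for both genes, and the spread between libraries was wide (log2 fold changes for Dex of −1.43, SE 0.52 for *Mrc1* and −1.43, SE 0.45 for *F13a1*, adjusted p = 0.113 and 0.0773). *Cd163*, the scavenger receptor for haemoglobin-haptoglobin, had 1.15 and 0.771 CPM with Dex+Zj7, 1.5 and 0.965 CPM with Dex and 2.01 and 1.22 CPM with vehicle. *Lyve1*, a hyaluronan receptor gene that is also lymphatic, had 0.592 and 0.689 CPM with Dex+Zj7, 0.592 and 0.601 CPM with Dex and 0.657 and 0.554 CPM with vehicle, so its groups overlapped. Markers of meningeal fibroblasts, which share the meninges with these macrophages, were also lower. The 10 such genes summed to 38.8 and 36.8 CPM with Dex+Zj7, 88.0 and 38.3 CPM with Dex and 209 and 112 CPM with vehicle, and 5 of 10 were lower with Dex and 8 of 10 with Dex+Zj7. All of these markers had a row, and *Col1a1*, a collagen gene, had 3.41 and 4.31 CPM with Dex+Zj7, 4.11 and 3.68 CPM with Dex and 10.1 and 6.61 CPM with vehicle. The part of meningeal tissue in the values of the border macrophage genes was not tested.

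**Figure D3:**
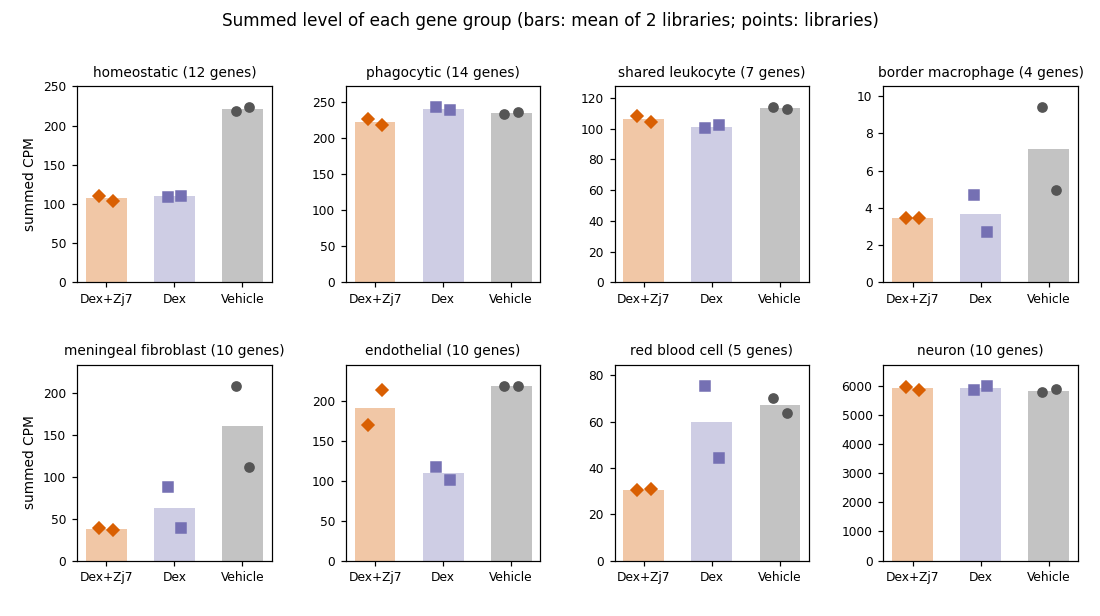
Summed CPM of each gene group in the 6 libraries (points), with the mean of each group of 2 libraries as a bar. The homeostatic sum is 104 to 111 CPM in the treated libraries and 219 to 223 CPM with vehicle, the phagocytic sum is 218 to 243 CPM over all libraries, and the border macrophage sum differs between libraries of a group as the meningeal fibroblast sum does.

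The question of the last comparison was whether Zj7 changed these genes on top of Dex. Between Dex+Zj7 and Dex, 0 of the 37 genes were called by edgeR's quasi-likelihood test, as were 0.00466% of all genes. DESeq2, the exact test and limma-voom also called 0 of the 37. At an unadjusted p under 0.05 there were 2 members, *Hpgds* and *Ctss*, or 5.41%, against 5.24% of all genes (3.12% higher and 2.12% lower). *Hpgds* was higher with Dex+Zj7 than with Dex (0.39, SE 0.16, adjusted p = 0.938) and *Ctss* was lower (−0.29, SE 0.09, adjusted p = 0.851). The median of the 37 genes was 0.05 and that of the 12 homeostatic genes −0.04 on the log2 scale, and 13 of the 37 lay within 0.1 of 0. The libraries did not overlap in 7 genes that were higher and 3 that were lower with Dex+Zj7 (16.4% and 14.9% of all genes). The ends of the range were *Fcgr1* at 0.73 (SE 0.33) and *Aif1* at −1.13 (SE 0.52), both with few reads. *Cx3cr1* was at 0.44 (SE 0.40), a value set by Dex+Zj7 replicate 2, since without that library *Cx3cr1* was at −0.60. With 2 libraries a group these standard errors leave room for changes that this comparison could not detect.

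**Figure D4:**
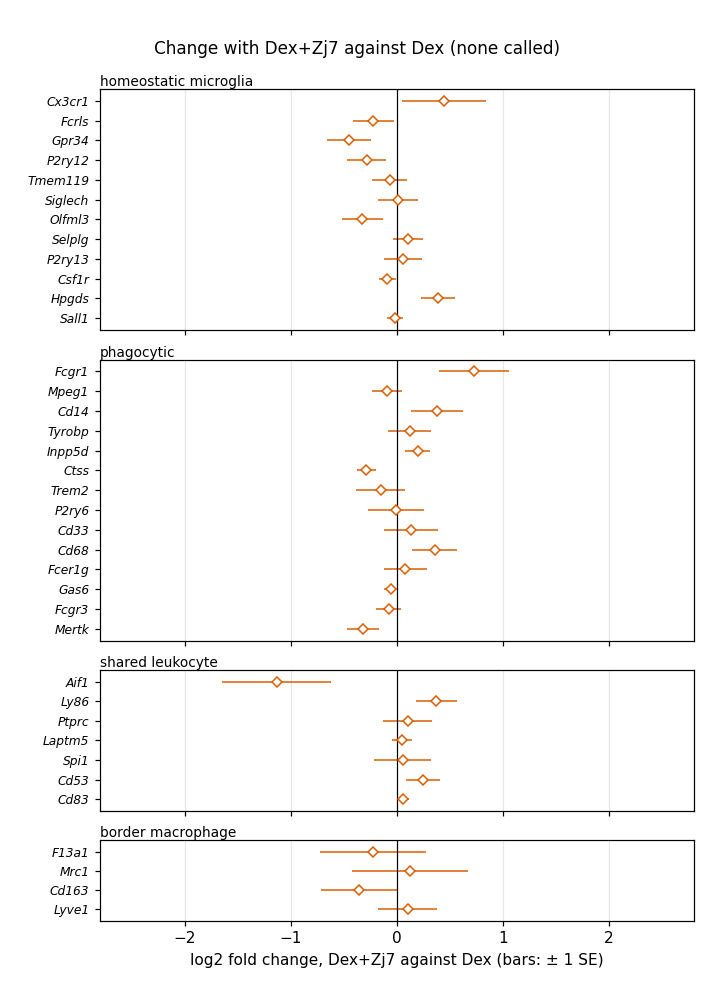
Log2 fold change of each gene for Dex+Zj7 against Dex, with bars of 1 SE. Values lie on both sides of 0 in every role group, with a median of 0.05 over the 37 genes, and none was called.

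Other genes of the same cells and pathways were counted from lists chosen with earlier results of these data known. Of 25 further microglia genes, 7 were lower and 0 higher with Dex, and 7 were lower and 1 higher with Dex+Zj7. The CD11b integrin gene *Itgam* had 3.25 and 3.15 CPM with Dex+Zj7, 4.40 and 3.57 CPM with Dex and 19.5 and 17.1 CPM with vehicle. *C1qc*, a chain of complement C1q, was at −0.78 with Dex, *Adgre1*, which encodes the macrophage stain F4/80, at −1.44 and the transporter gene *Slco2b1* at −0.79, all called. *Itgb2*, the partner chain of CD11b, was the gene called higher with Dex+Zj7 (0.77, adjusted p = 0.0444), with 5.25 and 6.31 CPM with Dex+Zj7, 3.77 and 5.02 CPM with Dex and 3.44 and 3.36 CPM with vehicle. *C1qa*, another chain of complement C1q named here after its values were seen, was not called in either comparison. It had 24.8 and 20.6 CPM with Dex+Zj7, 24.4 and 23.7 CPM with Dex and 28.0 and 27.8 CPM with vehicle.

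Of 11 measured ligands, receptors and transducers of the CSF1R, CX3CR1, TGF-beta and CD47 pathways, 5 were lower with Dex and 1 with Dex+Zj7. *Cx3cl1*, which encodes fractalkine, had 243 and 237 CPM with Dex+Zj7, 209 and 232 CPM with Dex and 276 and 297 CPM with vehicle (−0.38 with Dex, adjusted p = 0.0130). *Il34*, a ligand of CSF1R made by neurons, was at −0.40 with Dex (adjusted p = 0.0143), *Tgfbr2*, a TGF-beta receptor gene, at −0.87 (adjusted p = 0.00457) and *Sirpa*, the receptor for CD47, at −0.26 (adjusted p = 0.0292). *Csf1*, the other ligand of CSF1R, was not called (0.03). Of 9 genes that act below TREM2 and TYROBP, 1 was lower with Dex and 0 with Dex+Zj7, and the gene lower with Dex was the phosphatase gene *Ptpn6* (−1.03, adjusted p = 0.0337). Of 13 measured genes that microglia raise around plaques and damaged myelin, 3 were lower and 0 higher in each comparison, including *Cd9*, a tetraspanin gene (−0.66 with Dex), and *Ch25h*, a cholesterol hydroxylase gene (−2.62). Of 14 further border macrophage genes 6 had a row, and 3 of these were lower with Dex and 2 with Dex+Zj7. The 8 without a row included *Folr2* and *Cd209f*. The genes lower with Dex were *Siglec1* (−1.80, adjusted p = 0.0305), *Colec12* (−1.06, adjusted p = 0.0283) and *Dab2* (−0.33, adjusted p = 0.0455). *Siglec1* and *Colec12* were also lower with Dex+Zj7 (−1.85 and −1.27), and *Siglec1* had only 7 to 17 reads in the treated libraries. *Ms4a6c*, a membrane protein gene with close paralogs whose reads may be shared, was higher in both comparisons, with 2.91 and 3 CPM with Dex+Zj7, 3.36 and 2.57 CPM with Dex and 0.900 and 0.572 CPM with vehicle (2 on the log2 scale with Dex, SE 0.27, adjusted p = 0.00453).

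Cells of the blood also carry genes such as *Ptprc*, *Fcer1g* and *Cd53*. Of 12 lymphocyte genes 2 had a row, with a summed level of 0.312 to 0.331 CPM with Dex+Zj7, 0.395 to 0.510 CPM with Dex and 0.462 to 0.467 CPM with vehicle, and *Cd3e* and *Ms4a1* were not among the rows. Of 10 neutrophil genes 3 had a row, at 7.81 to 9.38 CPM with Dex+Zj7, 6.99 to 7.96 CPM with Dex and 7.25 to 8.06 CPM with vehicle, of which *S100a8* took 0.623 CPM or less. Of 10 monocyte genes 6 had a row, *Ccr2* not among them, at 39.5 to 40.4 CPM with Dex+Zj7, 38.6 to 44.8 CPM with Dex and 53.0 to 64.5 CPM with vehicle. Among these *Lyz2*, a lysozyme gene that macrophages also express, was lower with Dex (−1.46, adjusted p = 0.0100). The 5 red blood cell genes summed to 30.3 and 30.8 CPM with Dex+Zj7, 75.6 and 44.4 CPM with Dex and 70.1 and 64.0 CPM with vehicle. They were lower than vehicle with Dex+Zj7 in 5 of 5 genes and in 0 of 5 with Dex. Endothelial genes were lower with Dex in 9 of 10 and with Dex+Zj7 in 2 of 10. The part of blood and vessel cells in the values above was not tested.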

How the data were processed

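RNA-seq of ARC tissue was analysed in 6 libraries, 2 for each group, assigned by the sample titles. The authors removed low-quality reads, adapters and PCR duplicates, mapped the others to mm10 with Bowtie2 and HISAT2 and assembled transcripts with StringTie. The deposited counts are whole reads per gene, and the authors took out genes at 0 in any library. A gene silent in 1 group is therefore not among the 21461 genes, and every member described passed that filter. The FPKM values the authors deposited were used for levels between genes. Deposited TPM and log2 columns, and the columns of the authors' own fold changes and p-values, were not used.

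Counts went into edgeR 4.0.16 (R 4.3.3), and its quasi-likelihood test was run on 1 fit of the 6 libraries, with TMM factors, no covariate and no further filter. Adjustment was by Benjamini-Hochberg across the whole table, and a gene was called at an adjusted p under 0.05. The SE was taken from the F statistic (size of the log2 fold change over the root of F). The test was tested on simulated data. Positions and overlaps come from RefSeq (GRCm38.p6), matched for 21404 genes. Members and lists were chosen with earlier results of these data known. All members are accounted for, with library values for those called. Of each other list, up to 4 called genes with the smallest p were named. *Gm3134*, *Med12l* and *Cask* were named as they overlap members, and other genes outside these rules were named after their values were seen. Alternatives were RLE factors, total counts, DESeq2 1.42.0, limma-voom (limma 3.58.1), edgeR's exact test, only the groups compared in the fit, filters on low counts, the replicate number as a block, an adjusted p under 0.1, and leaving out each library. Totals of 50704789 to 61122938 counts gave every member 10 or more counts in each library, except *Aif1* with 6 in 1 library, and libraries of a group differed by more than counting error (chi-square per degree of freedom of 6.84 to 14.9).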

Additional observations from a re-analysis of the deposited data

How the results depend on the processing

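Against vehicle, 13 of the 20 genes lower with Dex and 13 of the 17 lower with Dex+Zj7 kept their call in every alternative that tested them, the filter on a mean of 1 CPM having dropped *Fcgr1* and *Aif1*. The losses of the others are given beside their values. With Dex, 14 to 25 members were called over all alternatives, and between Dex+Zj7 and Dex 0 in each. At an adjusted p under 0.1, members higher were 2 with Dex and 1 with Dex+Zj7, and genes called over the whole table were 4043 and 3014. The exact test called 3867 genes with Dex+Zj7 and 1 member higher, as did both filters on low counts for the members. For Dex+Zj7 against Dex, DESeq2 called 66 genes, the exact test 100 and the fit of only the 2 groups 0. Genes with a mean of at least 1 CPM left 33 members, whose Dex median was −0.56. Scaling by total counts gave 584 genes higher and 1033 lower with Dex+Zj7, against 730 and 853 with TMM, and put *Fcer1g* at −0.014 with Dex. Leaving out 1 library gave 538 to 2397 genes with Dex, 311 to 2330 with Dex+Zj7 and 0 to 3 between them, members higher of 0 to 1 in each comparison with vehicle, and member medians of −0.74 to −0.57 with Dex and −0.016 to 0.040 for Dex+Zj7 against Dex. Leaving out 1 library also turned the sign of uncalled genes: with Dex, *Cd68* ran from −0.22 to 0.028, *Fcer1g* from −0.18 to 0.24, *Cd163* from −0.74 to 0.011 and *Lyve1* from −0.14 to 0.11, and with Dex+Zj7, *Cd68* from −0.055 to 0.50, *Fcer1g* from −0.11 to 0.31, *Cd33* from −0.47 to 0.34, *Lyve1* from −0.043 to 0.20 and *Spi1* from −0.37 to 0.045. *Cx3cr1* ran from −0.60 to 1.03 and *Tmem119* from −0.25 to 0.14 for Dex+Zj7 against Dex. Such fits leave a group with 1 library, which is assumed to vary like the others. The cause of these shifts was not tested. Low counts limit *Aif1*, *Fcgr1*, *Lyve1* and *F13a1* most.

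Correlations of same-numbered deviations were 0.36 for Dex and vehicle, 0.06 for Dex+Zj7 and vehicle and 0.04 for Dex+Zj7 and Dex. Same-numbered libraries of Dex and vehicle thus shared part of their deviation, while those of Dex+Zj7 shared little with either group. The source of the shared part was not tested. With the replicate number as a block, 23 members were called with Dex and 20 with Dex+Zj7 (1 higher), while genes over the whole table were 3666 with Dex, against 2464 without the block, 2612 with Dex+Zj7, and 0 between Dex+Zj7 and Dex. *Mrc1* was then called in both comparisons with vehicle (adjusted p = 0.0198 with Dex and 0.0442 with Dex+Zj7).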
